A study of Homo sapiens with 9 samples.

Results

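The genes described are 10 chemokine ligands, CCL2, CCL5, CCL20, CCL22, CCL28, CXCL1, CXCL2, CXCL8, CXCL16 and CX3CL1, chosen by name from the 58051 genes of an RNA-seq count table. The rule names the genes and sets no limit on a measured value, but the genes were chosen with earlier results of these data known, so that counts over them are a description. The table covers A431, a human epidermoid carcinoma line that carries mutant p53, in 3 groups of 3 libraries each. Parental cells were unmodified. Ctrl cells had been through CRISPR with an empty vector and keep mutant p53, and p53 KO cells had been through CRISPR to remove mutant p53. All 3 groups share the A431 background and no drug or cytokine is named for any of them. Cells of each group were raised as single colonies, so that a group may be 1 clone, and were harvested 48 h after they had settled in the plate. Differences between groups therefore cannot be told apart from differences between the colonies from which they were grown.

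Chemokines are small secreted proteins that direct the movement of leukocytes and other cells along a gradient by binding G protein-coupled receptors. They are named for the spacing of the first cysteines (CC, CXC and CX3C). CXCL1, CXCL2 and CXCL8 bind CXCR2 and attract neutrophils, CCL2 binds CCR2, CCL20 binds CCR6, CCL22 binds CCR4, and CCL28 binds CCR10. CXCL16 and CX3CL1 are made as membrane-anchored proteins with a chemokine head on a stalk that metalloproteases can cut. Epithelial cells make several of these ligands, and NF-kappaB is a well-known activator of the genes for CCL2, CCL5, CCL20, CXCL1, CXCL2 and CXCL8.

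Libraries held 19783778 to 29840452 counts, so that 3 counts, the limit that a count of 0 allows, correspond to 0.101 to 0.153 CPM (the count per 1000000 counts of normalised library size). Of 8 epithelial markers all had counts, and their summed level was 20024 to 22988 CPM in parental, 15945 to 16829 in Ctrl and 18908 to 18978 in p53 KO libraries. Most of that sum was EGFR, with means of 15900, 10116 and 13501 CPM in parental, Ctrl and p53 KO cells. Of the 7 epithelial markers tested, 2 were higher (KRT5 and EPCAM) and 1 lower (CDH1) against parental cells, and 1 was higher (EGFR) and 2 lower (KRT8 and CDH1) against Ctrl cells. Over all tested genes, 9.77% were higher and 8.36% lower against parental cells, and 15% and 14.2% against Ctrl cells. KRT5, KRT8, EPCAM and EGFR were named after their values were seen. CDH1, the epithelial cadherin, fell by 0.32 (edgeR quasi-likelihood test, adjusted p = 0.0245) against parental and by 0.33 (adjusted p = 0.0140) against Ctrl cells on the log2 scale. Of 10 leukocyte markers 5 were at 0 in all 9 libraries, PTPRC, CD3E, MS4A1 and FCGR3A, named after their values were seen, among them. Of the 4 tested, 1 was higher and 0 lower against parental cells, and 2 were higher and 0 lower against Ctrl cells. CSF1R and CD68, also named after their values were seen, had at most 78 and 42 counts. Mean levels of CSF1R were 1.83, 1.01 and 2.60 CPM in parental, Ctrl and p53 KO cells. CSF1R was called higher against Ctrl (log2 fold change 1.37, edgeR adjusted p = 0.000551) but not parental cells (0.50, adjusted p = 0.0943). CD68 was called in neither comparison. Nor was ITGAM, named after its values were seen, which had at most 17 counts and pointed the other way against parental cells. Its mean level was 0.483 CPM in parental and 0.202 in p53 KO cells (log2 fold change -1.20, edgeR adjusted p = 0.0904). In Ctrl cells the mean of ITGAM was 0.189 CPM, close to that in p53 KO cells (0.06, adjusted p = 0.952). The summed level of the leukocyte list was 2.95 to 4.09 CPM in parental, 2.29 to 3.20 in Ctrl and 4.83 to 5.87 in p53 KO libraries. Its member LYZ, which encodes lysozyme and is also made by epithelia, rose against parental (log2 fold change 2.93, adjusted p = 0.00273) and against Ctrl (1.83, adjusted p = 0.00902). LYZ passed the filter only through the p53 KO libraries, so that these tests are of a gene that had to be high there. The 7 fibroblast and endothelial markers summed to 4.57 to 4.96, 3.70 to 4.64 and 2.83 to 4.03 CPM in the same order, with COL1A1 at 47 to 114 and PECAM1 at 1 to 13 counts. The part of these lists in the ligand results was not tested.

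The ligand genes lie on 5 chromosomes in the GENCODE 44 annotation of GRCh38. CXCL8 (chr4:73740519-73743716, plus strand), CXCL1 (chr4:73869393-73871308, plus strand) and CXCL2 (chr4:74097040-74099196, minus strand) share the CXC cluster, with 125.7 kb between CXCL8 and CXCL1 and 225.7 kb between CXCL1 and CXCL2. CCL22 (chr16:57358783-57366189, plus strand) and CX3CL1 (chr16:57372477-57385044, plus strand) are 6.3 kb apart. CCL2 (chr17:34255274-34257208, plus strand), CCL5 (chr17:35871491-35880793, minus strand) and CXCL16 (chr17:4733533-4739928, minus strand) are all on chromosome 17, CCL20 is at chr2:227805739-227817564 on the plus strand and CCL28 at chr5:43376645-43412391 on the minus strand. Each of the 10 is annotated as protein coding.

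The 250 bases before the RefSeq start (GRCh38.p14) are shown for CCL22, CCL28, CXCL1 and CXCL8, which were higher in p53 KO cells than in both controls, and for CXCL2, which was added after its values were seen because its upstream sequence resembles that of CXCL1. The RefSeq table matched 6 of the 10 ligands, CCL20 among them, and CCL2, CCL5, CXCL16 and CX3CL1 were not matched. Capitals mark letters found by a search of both strands for the kappaB motif GGGRNNYYCC of NF-kappaB, the core GAAANNGAA of the interferon-stimulated response element, the TATA box TATAAA and the AP-1 site TGANTCA. In these, R is A or G, Y is C or T and N is any base. Each runs 5′ to 3′ on the strand of its gene, CCL22 over chr16:57358533-57358782 (plus), CCL28 over chr5:43412392-43412641 (minus), CXCL1 over chr4:73869143-73869392 (plus), CXCL2 over chr4:74099196-74099445 (minus) and CXCL8 over chr4:73740319-73740568 (plus). The RefSeq start of CXCL8 lies inside the GENCODE gene.
CCL22: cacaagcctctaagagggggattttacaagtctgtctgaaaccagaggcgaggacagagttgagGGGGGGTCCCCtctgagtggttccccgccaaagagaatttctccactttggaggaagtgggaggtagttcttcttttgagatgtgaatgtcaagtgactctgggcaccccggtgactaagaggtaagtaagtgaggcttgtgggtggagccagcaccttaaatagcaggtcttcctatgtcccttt
CCL28: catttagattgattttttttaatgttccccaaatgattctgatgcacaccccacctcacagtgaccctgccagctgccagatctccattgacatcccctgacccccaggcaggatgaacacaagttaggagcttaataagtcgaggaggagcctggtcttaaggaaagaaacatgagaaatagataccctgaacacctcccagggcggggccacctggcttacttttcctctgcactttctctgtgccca
CXCL1: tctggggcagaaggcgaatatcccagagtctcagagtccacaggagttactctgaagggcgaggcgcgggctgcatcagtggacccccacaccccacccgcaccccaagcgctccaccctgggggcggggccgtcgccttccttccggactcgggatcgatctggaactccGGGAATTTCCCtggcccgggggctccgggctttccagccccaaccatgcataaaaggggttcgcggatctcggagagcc
CXCL2: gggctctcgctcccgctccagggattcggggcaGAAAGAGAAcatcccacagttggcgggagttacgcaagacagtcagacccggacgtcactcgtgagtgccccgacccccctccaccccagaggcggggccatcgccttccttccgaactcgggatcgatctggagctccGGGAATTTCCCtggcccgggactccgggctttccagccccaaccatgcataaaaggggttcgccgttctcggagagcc
CXCL8: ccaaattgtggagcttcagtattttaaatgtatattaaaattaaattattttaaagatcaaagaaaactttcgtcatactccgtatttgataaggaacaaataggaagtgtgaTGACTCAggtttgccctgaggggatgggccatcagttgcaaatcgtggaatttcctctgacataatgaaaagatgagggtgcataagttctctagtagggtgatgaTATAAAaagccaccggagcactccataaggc

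A kappaB match was present in 4 of the 6 upstream sequences, against 9.96% of 35116 RefSeq promoters of the same length. In CXCL1 it lay 79 to 69 bases before the start and in CXCL2 78 to 68 bases before it, with the same letters in both genes. In CCL22 it lay 186 to 176 bases before the start, and CCL20, a ligand with almost no counts, had the remaining match. The kappaB motif reads nearly the same on both strands, so the matches in CCL22, CXCL1 and CXCL2 overlap with a match on the other strand. CXCL8 had the AP-1 letters 137 to 131 bases before its start (6.57% of promoters have a match) and the TATA box 31 to 26 bases before it (10.7% of promoters, and CCL20 as well), and CXCL2 the ISRE core 217 to 209 bases before its start (6.88% of promoters). The CXCL8 sequence also holds tggaatttcc, which departs from the kappaB letters only at the first base and so was not counted as a match. Sites that depart from the searched letters were thus missed. The CCL28 sequence held no match to the 4 motifs. Aligned over 250 bases, CXCL1 and CXCL2 were identical at 181 (72.4%), while the other pairs of the 6 sequences were identical at 44.4% to 53.2%.

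In A431 cells with mutant p53 the membrane-anchored CXCL16 was by far the best detected ligand, and the soluble ligands were detected at low levels. Per kb of merged exon, which allows levels to be compared between genes, parental cells had 19.8 ± 0.612 CPM of CXCL16 (SD, n = 3), followed by CCL5 at 0.634 ± 0.124 and CXCL2 at 0.361 ± 0.0506. CCL22 (0.248 ± 0.0369), CCL28 (0.161 ± 0.0298), CXCL8 (0.106 ± 0.0542) and CXCL1 (0.0902 ± 0.00989) came next. CXCL8 and CXCL1 did not differ beyond their spread in parental cells, nor did CXCL8 and CCL28. In p53 KO cells the order per kb became CXCL16 (17.6 ± 1.70), CCL22 (2.79 ± 0.652), CCL5 (1.67 ± 0.204), CCL28 (0.853 ± 0.0871), CXCL2 (0.488 ± 0.0782), CXCL1 (0.341 ± 0.0433) and CXCL8 (0.333 ± 0.0980). CXCL1 and CXCL8 were again within their spread of each other. CCL2, CCL20 and CX3CL1 had at most 0.0267 CPM per kb as the mean of a group.

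The comparison of p53 KO with the 2 mutant p53 groups holds loss of mutant p53 and differences between colonies together. Of the 10 ligands, 7 passed the filter on low counts. Against parental cells 5 of these 7 were higher and 0 lower at an adjusted p of at most 0.05, where 9.77% of the 14513 tested genes were higher and 8.36% lower. Against Ctrl cells 6 of 7 were higher and 0 lower, where the share over all tested genes was 15% higher and 14.2% lower. The median log2 fold change of the 7 was 1.68 against parental cells and 2.81 against Ctrl cells, beside 0.00648 and 0.00603 for all tested genes. Both medians are the values of CXCL8. CXCL1 and CXCL8 passed the filter only through the p53 KO libraries, so the counts and medians over the 7 hold genes that had to be high there, and they do not stand for all 10. Of the other 5, CCL5, CCL22 and CCL28 were higher against parental cells, and these and CXCL2 against Ctrl cells. Both comparisons use the same p53 KO libraries. In bulk RNA, more cells expressing a ligand and more of its RNA per cell cannot be told apart.

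**Figure D1:**
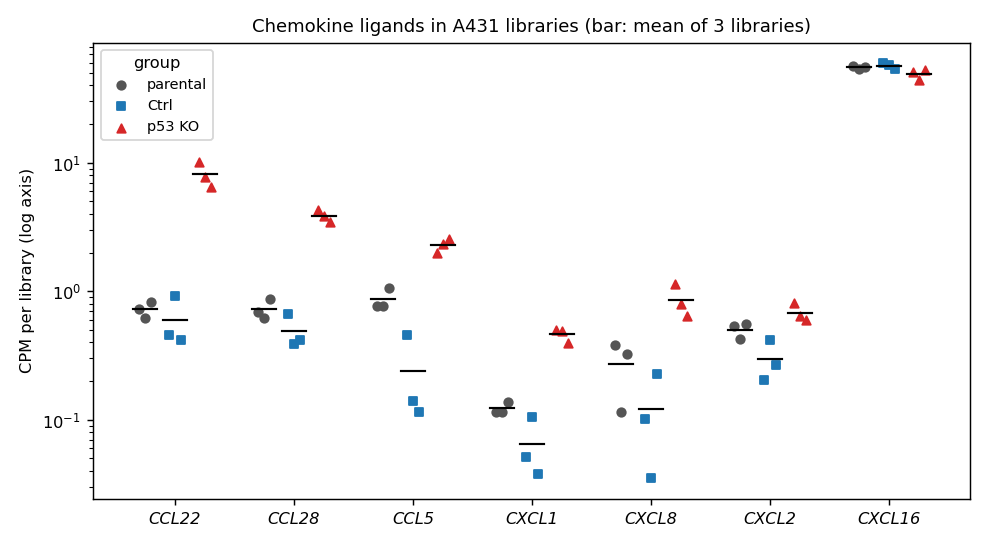
Level of each tested ligand in CPM (log axis) in each library, by group, with a bar at the mean of 3 libraries. The p53 KO libraries of CCL22, at 6.45 to 10.2 CPM, lie above all 6 libraries with mutant p53, and the libraries of CXCL16 lie close together at 43.8 to 59.4 CPM.

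CCL22, the macrophage-derived chemokine that attracts regulatory T cells through CCR4, showed the largest fold change of the tested ligands. Its counts were 19, 16 and 18 in parental libraries 1, 2 and 3, 9, 26 and 11 in Ctrl libraries and 304, 204 and 130 in p53 KO libraries. Every p53 KO library was far above every library with mutant p53, and Ctrl library 2 stood above the other Ctrl libraries. The mean level was 8.14 ± 1.90 CPM in p53 KO, 0.724 ± 0.107 in parental and 0.597 ± 0.274 in Ctrl cells (SD, n = 3). CCL22 was 11.3-fold higher than in parental cells (log2 fold change 3.50, SE 0.26, adjusted p = 1.16e-05, edgeR quasi-likelihood test) and 13.2-fold higher than in Ctrl cells (3.73, SE 0.27, adjusted p = 3.35e-06). Within p53 KO the libraries differed more than counting alone gives, with a coefficient of variation of 23.4% against 6.86%.

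CCL28, a mucosal epithelial chemokine that binds CCR10, had the second largest fold change against parental cells and the third against Ctrl cells, after CCL22 and CCL5. It had 18, 16 and 19 counts in parental, 13, 11 and 11 in Ctrl and 127, 101 and 70 in p53 KO libraries. The p53 KO libraries did not overlap with the others, and their spread of 10.2% was as large as counting alone gives (10.0%). The level was 3.86 ± 0.394 CPM in p53 KO, 0.727 ± 0.135 in parental and 0.490 ± 0.151 in Ctrl cells. The difference was 5.36-fold against parental (log2 fold change 2.42, SE 0.20, edgeR adjusted p = 2.59e-05) and 8.11-fold against Ctrl cells (3.02, SE 0.22, adjusted p = 3.45e-06).

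CCL5, also known as RANTES, which attracts T cells and monocytes, differed in all 3 comparisons. It had 20, 20 and 23 counts in parental, 9, 4 and 3 in Ctrl and 59, 61 and 51 in p53 KO libraries. The 3 groups did not overlap, with p53 KO highest and Ctrl lowest, and Ctrl library 1 was the highest of its group. Against parental cells CCL5 was 2.63-fold higher in p53 KO (log2 fold change 1.39, SE 0.27, edgeR adjusted p = 0.00459), and against Ctrl cells it was 10.2-fold higher (3.35, SE 0.35, adjusted p = 4.90e-05). Ctrl cells themselves were 3.88-fold below parental cells (log2 fold change -1.96, SE 0.41, adjusted p = 0.00863). The p53 KO difference was thus larger against Ctrl than against parental cells, although both controls carry mutant p53. Without Ctrl library 1 the log2 fold change was 4.09 for p53 KO against Ctrl and -2.70 for Ctrl against parental cells. Without Ctrl library 3 the values were 3.02 and -1.63. Of the 75-base windows of CCL5 transcripts, 8.80% also occur in transcripts of other genes, and a lncRNA on the opposite strand lies over CCL5 without sharing exon bases.

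The ligands of CXCR2 were present at a few counts per library. CXCL1, a neutrophil attractant, had 3, 3 and 3 counts in parental, 1, 3 and 1 in Ctrl and 15, 13 and 8 in p53 KO libraries. All control libraries were at or under the limit of 3 counts, and every p53 KO library was above it. The ratio of summed counts per normalised library size was 3.87 against parental cells (95% counting interval 1.83 to 9.14) and 7.02 against Ctrl cells (2.74 to 22.9). The edgeR adjusted p for CXCL1 was 0.00466 against parental and 0.000611 against Ctrl cells. CXCL1 passed the filter only through the p53 KO libraries, so that these tests are of a gene that had to be high there.

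CXCL8, the classical neutrophil attractant interleukin-8, had 10, 3 and 7 counts in parental, 2, 1 and 6 in Ctrl and 34, 21 and 13 in p53 KO libraries. The p53 KO libraries were above all others, although the groups were wide, with a coefficient of variation of 29.4% in p53 KO, 51.2% in parental and 80.6% in Ctrl cells. The log2 fold change was 1.68 (SE 0.44) against parental and 2.81 (SE 0.52) against Ctrl cells, with edgeR adjusted p-values of 0.0228 and 0.00199. As for CXCL1, these tests are of a gene that passed the filter only through the p53 KO libraries. The call against parental cells was lost when parental library 2 (adjusted p = 0.0965), parental library 3 (0.0605), p53 KO library 1 (0.105) or p53 KO library 2 (0.0509) was left out, with log2 fold changes of 1.29, 1.80, 1.41 and 1.75. Against Ctrl cells the log2 fold change of CXCL8 was 3.71 without Ctrl library 3 and 2.31 without Ctrl library 2.

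CXCL2, which also binds CXCR2, had 14, 11 and 12 counts in parental, 4, 12 and 7 in Ctrl and 24, 17 and 12 in p53 KO libraries. Its levels did not overlap between p53 KO (0.595 to 0.805 CPM) and parental libraries (0.423 to 0.554 CPM), but the log2 fold change of 0.46 (SE 0.28) missed the threshold (edgeR adjusted p = 0.294). The count ratio of 1.39 had a counting interval of 0.894 to 2.17, so that counting error alone leaves room for up to a 2.17-fold difference. Against Ctrl cells CXCL2 was 2.23-fold higher (log2 fold change 1.15, SE 0.31, adjusted p = 0.0165). That call was lost without p53 KO library 1 (adjusted p = 0.0768) or Ctrl library 3 (0.0537), at log2 fold changes of 1.01 and 1.05. Of the 75-base windows of CXCL2, 7.56% also occur in CXCL1 or CXCL3, and 0.233% of those of CXCL1 occur in CXCL2. A single read from those windows cannot be assigned to 1 of these genes by its own sequence. Reads were paired, so that its mate may still place it.

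**Figure D2:**
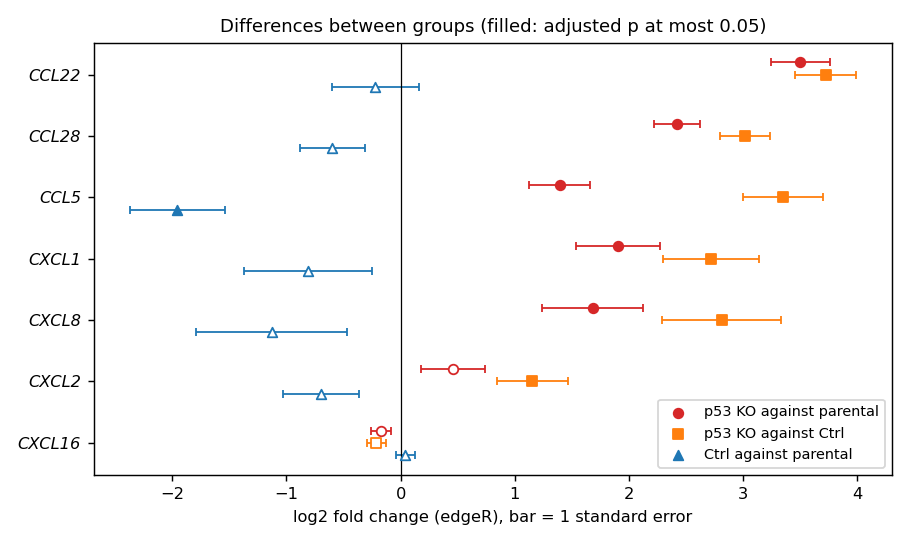
Log2 fold change of each tested ligand in the 3 comparisons, with bars of 1 standard error and filled symbols where the adjusted p was at most 0.05. CCL22 is farthest to the right at 3.50 and 3.73, CXCL16 lies near 0 throughout, and CCL5 is the ligand with a filled symbol in Ctrl against parental cells.

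CXCL16, a scavenger receptor and the ligand of CXCR6, did not follow the other tested ligands. Its counts were 1486, 1391 and 1210 in parental, 1164, 1651 and 1408 in Ctrl and 1519, 1152 and 1065 in p53 KO libraries. In CPM the p53 KO libraries (43.8 to 52.8) were below all control libraries (53.5 to 59.4), and p53 KO library 2 was the lowest. The log2 fold change was -0.17 (SE 0.09, edgeR adjusted p = 0.197) against parental and -0.21 (SE 0.09, adjusted p = 0.0858) against Ctrl cells, so neither passed the threshold. CXCL16 shares exon bases with MED11 and ZMYND15 on the opposite strand, named for this overlap. The library kit keeps strand, but the strand setting used in counting is not given in the sources used here, so reads of these genes may be mixed.

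The remaining ligands were at the limit of detection. CCL2, a monocyte attractant, had 0 counts in all 6 libraries with mutant p53 and 2, 1 and 1 counts in p53 KO libraries. CX3CL1, or fractalkine, had 1, 0 and 0 counts in parental, 0 in every Ctrl and 4, 0 and 1 in p53 KO libraries. CCL20, which attracts Th17 cells and dendritic cells, had 1 count in parental library 2, 1 in p53 KO library 3 and 0 elsewhere. A count of 0 allows up to 3 counts in that library, so differences of these 3 genes were not detectable at this depth. CX3CL1 had at most 4 counts in any library although CCL22, 6.3 kb away, reached 304.

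Between the 2 groups with mutant p53, 1 of 7 tested ligands was lower in Ctrl cells (CCL5) and 0 were higher, where 9.69% of all tested genes were lower and 10.6% higher. The other fold changes had edgeR adjusted p-values of 0.148 to 0.741. All tested ligands but CXCL16 had a negative log2 fold change, with -0.22 (SE 0.38) for CCL22, -0.60 (SE 0.28) for CCL28, -0.70 (SE 0.33) for CXCL2, -0.81 (SE 0.56) for CXCL1 and -1.13 (SE 0.66) for CXCL8. Without Ctrl library 3 the value was 0.0073 for CCL22 and -2.03 for CXCL8. Leaving out Ctrl library 2 gave -0.71 for CCL22 and -0.63 for CXCL8. The negative values add to the p53 KO difference where Ctrl is the control.

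**Figure D3:**
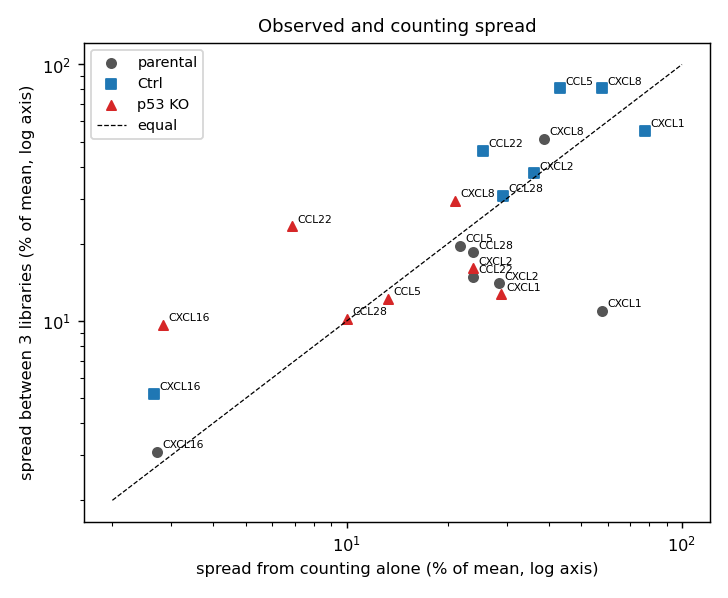
Coefficient of variation between the 3 libraries of a group against the value expected from counting alone, both in percent on log axes, with the dashed line where they are equal. CCL22 and CXCL16 in p53 KO lie well above the line, while CCL28 in p53 KO lies on it and CXCL1 in p53 KO lies below it, at 12.7% against 28.9%.

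The other members of the family were mostly silent. Of 38 other chemokine ligands listed, 36 were in the table, 23 of these had no count in any library and 30 had at most 3. XCL1, which attracts dendritic cells, was tested and had 10, 9 and 5 counts in parental, 9, 8 and 6 in Ctrl and 17, 20 and 11 in p53 KO libraries. XCL1 passed the filter only through the p53 KO libraries, where it had to be high. Its log2 fold change was 0.94 (SE 0.33, edgeR adjusted p = 0.0695) against parental and 1.00 (SE 0.33, adjusted p = 0.0407) against Ctrl cells. CXCL3, the third gene of the CXCL1 group, had 3, 3 and 3, then 5, 5 and 5, then 12, 6 and 4 counts in the same order and did not pass the filter. Named after their values were seen, the interferon-inducible CXCL10 had 2, 1 and 14 counts and CXCL11 had 2, 1 and 19 counts summed over parental, Ctrl and p53 KO libraries, and CCL26 had 2, 0 and 12. In p53 KO libraries 1, 2 and 3 the counts were 4, 9 and 1 for CXCL10, 9, 5 and 5 for CXCL11 and 3, 4 and 5 for CCL26.

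Receptors for the ligands were rarely detected. All 22 chemokine receptor genes listed were in the table, 12 had no count and 17 had at most 3. CXCR2, the receptor of CXCL1, CXCL2 and CXCL8, had 1, 7 and 7 counts in parental, 44, 44 and 39 in Ctrl and 9, 6 and 0 in p53 KO libraries. It was thus highest in Ctrl cells. The mean levels of CXCL1, CXCL2 and CXCL8 were lowest in Ctrl cells, but that of CXCL3, also a ligand of CXCR2, was 0.207 CPM there, between 0.123 in parental and 0.276 in p53 KO cells. CXCR2 passed the filter only through the Ctrl libraries, so that its tests are of a gene that had to be high there. CXCR2 gave a log2 fold change of 3.05 in Ctrl against parental cells (SE 0.51, edgeR adjusted p = 0.00233), -3.12 in p53 KO against Ctrl cells (SE 0.51, adjusted p = 0.000915), and -0.06 in p53 KO against parental cells (SE 0.78, adjusted p = 0.965). ACKR3, a scavenging receptor for CXCL11 and CXCL12, had 52, 43 and 49 counts in parental, 83, 160 and 101 in Ctrl and 427, 311 and 312 in p53 KO libraries. It rose against parental (log2 fold change 2.82, SE 0.18, adjusted p = 4.15e-06) and against Ctrl cells (1.59, SE 0.16, adjusted p = 3.71e-05), and Ctrl was above parental (1.23, SE 0.20, adjusted p = 0.00167).

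**Figure D4:**
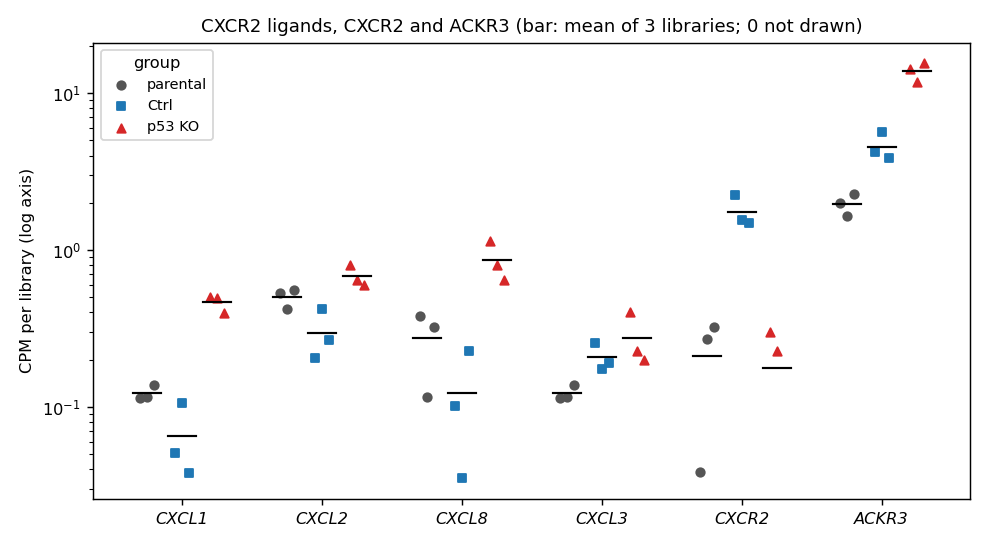
Level in CPM (log axis) of the CXCR2 ligands CXCL1, CXCL2, CXCL8 and CXCL3, of CXCR2 and of ACKR3 in each library, with a bar at the mean of 3 libraries and a value of 0 not drawn. CXCR2 is highest in the 3 Ctrl libraries, at 39 to 44 counts, and ACKR3 is highest in the 3 p53 KO libraries.

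Genes that act on chemokines or with them were read from lists. Of 8 processing enzymes 3 were tested, and ADAM10 and ADAM17, which shed CXCL16 and CX3CL1 and are named after their values were seen, passed the threshold in neither p53 KO comparison (edgeR adjusted p-values of 0.121 to 0.874). MMP2, a protease that can trim chemokines, was higher against parental cells (log2 fold change 1.57, SE 0.12) and against Ctrl cells (adjusted p = 1.19e-08). The Ctrl libraries held only 4, 3 and 1 counts of MMP2, so that no size is given there, and Ctrl was itself below parental cells (adjusted p = 5.02e-07). The shares over all tested genes were 9.77% higher and 8.36% lower against parental, 15% and 14.2% against Ctrl, and 10.6% and 9.69% in Ctrl against parental cells. The 9 NF-kappaB subunits and kinases held 1 higher and 1 lower gene against parental cells and 4 higher and 0 lower against Ctrl cells, with 0 higher and 3 lower in Ctrl against parental cells. IKBKB, the kinase that releases NF-kappaB, was 0.34 higher on the log2 scale (SE 0.08, adjusted p = 0.0147) than in parental and 0.28 (SE 0.08, adjusted p = 0.0219) than in Ctrl cells. The 11 NF-kappaB feedback and target genes held 5 higher and 1 lower against parental and 5 higher and 0 lower against Ctrl cells, with medians of 0.18 and 0.16, and 1 higher and 4 lower in Ctrl against parental cells. IER3, an early response gene, was higher by log2 fold changes of 0.95 and 2.21, and SOD2, the mitochondrial superoxide dismutase, by 0.59 and 0.61. BIRC3, an inhibitor of apoptosis, was higher by 0.57 and 1.34, and NFKBIZ, a nuclear IkappaB protein, by 0.63 and 0.54, each called in both comparisons. IER3 and BIRC3 were also called lower in Ctrl than in parental cells, at -1.27 and -0.77. TRAF1, named after its values were seen, was the gene lower against parental cells (-2.07, edgeR adjusted p = 0.0138). It was not called against Ctrl cells (-0.21, adjusted p = 0.835). Of 14 inflammatory cytokines 6 were tested, with 1 higher and 1 lower against parental and 2 higher and 1 lower against Ctrl cells, and 0 higher and 3 lower in Ctrl against parental cells. CSF2, the granulocyte-macrophage growth factor, had 16, 26 and 23 counts in parental, 6, 5 and 6 in Ctrl and 55, 65 and 59 in p53 KO libraries, at log2 fold changes of 1.43 (SE 0.25, adjusted p = 0.00270) and 3.35 (SE 0.32, adjusted p = 2.96e-05).

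Neighbouring genes were compared with the ligands. Within 250 kb of CCL22, 11 other genes were tested, of which 1 was higher and 1 lower against parental cells (over all tested genes 9.77% and 8.36%), and 3 were higher and 1 lower against Ctrl cells (15% and 14.2%). The gene with the largest change there was PLLP, which encodes the membrane protein plasmolipin, 74.1 kb away, with log2 fold changes of 1.17 (edgeR adjusted p = 0.0772) and 3.77 (adjusted p = 0.000892) against parental and Ctrl cells. PLLP was itself lower in Ctrl than in parental cells (-2.60, adjusted p = 0.0316). Around CCL28, 10 genes were tested, with 0 higher and 0 lower against parental and 2 higher and 0 lower against Ctrl cells. Around CCL5, 5 were tested, with 1 higher and 0 lower against parental and 2 higher and 0 lower against Ctrl cells. MMP28, a matrix metalloproteinase gene 75.8 kb from CCL5, had log2 fold changes of 1.84 (adjusted p = 9.11e-05) and 0.68 (adjusted p = 0.0100). For MMP28, Ctrl was above parental cells (1.16, adjusted p = 0.00201). PLLP and MMP28 were named after their values were seen.

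**Figure D5:**
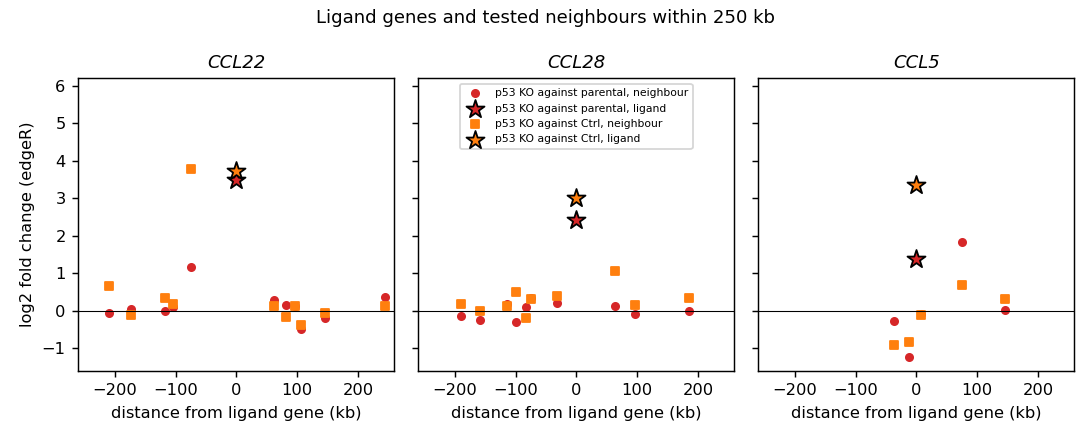
Log2 fold change in p53 KO against each control for CCL22, CCL28 and CCL5 (stars at 0) and for other tested genes within 250 kb (points), by distance in kb. The stars of CCL28 lie above all its neighbours, while PLLP, 74.1 kb from CCL22, reaches 3.77 against Ctrl cells.

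For each tested ligand the gene with the most similar profile was found by the root mean square (RMS) difference of centred log2 CPM over the 9 libraries, as a description. CCL22 was nearest to CMPK2, an interferon-inducible nucleotide kinase (0.328), CCL28 to PTGIS, the prostacyclin synthase (0.181), and CCL5 to EMP3, a membrane protein (0.255). CXCL1 was nearest to CD24 (0.205), CXCL2 to CNTNAP3 (0.135), CXCL8 to NFATC2 (0.389) and CXCL16 to PACSIN2 (0.0492). CMPK2 had mean levels of 0.0972, 0.0521 and 1.28 CPM in parental, Ctrl and p53 KO cells. In the same order PTGIS had 0.0692, 0.0170 and 0.584 CPM and NFATC2 0.220, 0.132 and 0.924 CPM. These genes were thus low in both controls, and a shared regulation with the ligands was not tested. Within the family CXCL1 and CXCL2 were each other's nearest ligand, at 0.480. Between replicates, p53 KO library 1, the deepest of its group, was the highest in 5 of the 7 tested ligands and p53 KO library 3, the shallowest, the lowest in 5. The other groups did not show this order. Parental library 3, the shallowest of its group, was the highest in 5 ligands and the lowest in 0. Ctrl library 1, the shallowest of its group, was the highest in 3 and the lowest in 1.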

How the data were processed

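PolyA RNA of 9 A431 libraries (3 parental, 3 Ctrl, 3 p53 KO) had been sequenced from a strand-specific kit. The authors deposited raw read counts per gene. The submitters' processing notes name FastQC, STAR 2.5.1b, featureCounts and GRCh38, and the strand setting is not given in the sources used here. Gene symbols were read from the table, and positions and exon lengths from GENCODE 44. Genes were filtered with filterByExpr (minimum count 10), scaled by TMM and tested with the edgeR 4.0.16 quasi-likelihood test (R 4.3.3) on all 9 libraries with 1 mean per group. A gene was called at a Benjamini-Hochberg adjusted p of at most 0.05 over the 14513 genes tested. The scripts were tested on simulated data. Standard errors (SE) are the absolute log2 fold change over the root of the F statistic. CPM are counts over the normalised library size. Counting intervals (95%) of pooled counts and the limit of 3 counts cover counting error only.

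Members and gene lists were chosen with earlier results of these data known. The text names all 10 ligands, from each other list up to 4 genes called in the same direction in both p53 KO comparisons or, failing any, up to 2 with the highest mean count, every other ligand or receptor with at least 10 counts in a library, and the nearest profile of each tested ligand. Genes outside this rule are marked as named after their values were seen or, for MED11 and ZMYND15, as named for their overlap with CXCL16. The check of the targeted gene is not reported here. Nothing in the labels says that libraries came from separate cultures, so p-values measure the spread between these libraries, which may be technical. Alternatives were DESeq2 1.42.0, its size factors in edgeR, other filters, a replicate block, fits of 2 groups, a log2 fold change limit of 1.5 and leaving out each library. The replicate numbers did not pair the samples.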

Additional observations from a re-analysis of the deposited data

How the results depend on the processing

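Of 298 refits of single ligands, 291 kept the direction and the side of the threshold, 6 lost the call with the same direction and 1 reversed. The last was CCL22 in Ctrl against parental cells, at 0.0073 without Ctrl replicate 3, within a range of -0.71 to 0.0073 over the libraries left out in turn. The 6 were CXCL8 against parental and CXCL2 against Ctrl cells, given with those genes. With at least 10 counts required in every library only CCL28 and CXCL16 stayed tested, so that 1, 1 and 0 ligands were called for p53 KO over parental, p53 KO over Ctrl and Ctrl over parental cells, the order kept below. Of all genes tested in that setting, 18.0%, 29.6% and 20.6% were called. Leaving out 1 library at a time gave 4 to 5, 5 to 6 and 1 to 1 called ligands. With a log2 fold change limit of 1.5 in addition, 4, 5 and 1 were called, beside 1.95%, 3.29% and 1.94% of all tested genes. DESeq2, its size factors in edgeR and the fit without a filter called 5, 6 and 1, as did the fits of 2 groups, where 5 ligands were tested in Ctrl against parental cells. The same replicate number did not mark related libraries (correlations of deviations from the group means -0.348 to 0.0409, with 0 of 9 libraries closest to its own number), and with the replicate block 5, 6 and 1 ligands were called. Over all genes the share at an adjusted p of at most 0.05 moved more, in p53 KO against parental cells from 10.6% without parental replicate 1 to 34.1% in the fit of 2 groups. In p53 KO against Ctrl cells it ran from 17.4% without the filter to 35.0% without Ctrl replicate 1. In Ctrl against parental cells it ran from 9.34% without parental replicate 1 to 29.6% without Ctrl replicate 3. Without the filter CCL2, CCL20 and CX3CL1 had adjusted p-values of 0.178 to 1. Depth limits the ligands with few counts. CXCL1, CXCL2 and CXCL8 had at most 34 in a library.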
